A study of Homo sapiens with 12 samples.

Results

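Death receptors are cell surface proteins through which a ligand on a neighbouring cell, or in solution, can start apoptosis. The group described here was chosen by name and held 6 genes: FAS, the receptor of FAS ligand, the TRAIL receptors TNFRSF10A (TRAIL-R1, also DR4), TNFRSF10B (TRAIL-R2, DR5), TNFRSF10C (TRAIL-R3, DcR1) and TNFRSF10D (TRAIL-R4, DcR2), and TNFRSF1A, the TNF receptor TNFR1. For each symbol the entry with the highest mean was taken, and each member had 1 entry among the 22564 genes of the deposited comparison. RNA-seq was made from A549 cells, a human lung adenocarcinoma line with epithelial character. The 6 siYTHDC1 libraries came from cells given siRNA against YTHDC1, and the 6 siSCR libraries from cells given a scrambled siRNA. All cells of both groups were transfected at 40 nM and collected 48 to 72 h later, with no other agent or allele named in the labels. Total RNA was depleted of ribosomal RNA and made into stranded libraries. The comparison asked which transcripts changed when YTHDC1, a nuclear protein that binds N6-methyladenosine (m6A) in RNA, was depleted. Both groups are of 1 cell line, and the labels do not say that the libraries of a group came from separate cultures, so the errors below may hold technical spread only.

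FAS, TNFRSF10A and TNFRSF10B carry a death domain in their cytoplasmic tail. Once bound by ligand, this domain recruits the adaptor FADD and the initiator caspases CASP8 and CASP10 into the death-inducing signalling complex. TNFRSF1A also has a death domain, but it first recruits TRADD, RIPK1 and TRAF2 and drives NF-kB signalling, and turns to cell death when that arm is blocked. TNFRSF10C lacks a cytoplasmic tail and TNFRSF10D has a truncated death domain, so both bind TRAIL as decoys without starting apoptosis.

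The sense strands of the study's siRNAs define the 2 groups and are shown for that reason. The labels do not say which of the 2 YTHDC1 siRNAs was used for these libraries.
siSCR: cagucgcguuugcgacugg
siRNA2_YTHDC1: cgaguaugcaaauauugaa
siRNA4_YTHDC1: cagagauaaacgaguacauga
The sequence of siRNA2_YTHDC1 matched the minus strand at chr4:69179376-69179394 (GRCh37), in the 3′ UTR of YTHDC1 within exon 17 of its longest coding transcript. That of siRNA4_YTHDC1 lay in the coding sequence and crossed an exon junction, with its 2 ends at chr4:69180037-69182047. None of the 3 had a full-length match, on either strand, in the longest coding transcript of a death receptor, as 0 of the 6 members held one. Partial matches were not searched.

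YTHDC1 itself was 71.7% lower in siYTHDC1 (log2 fold change -1.82, SE 0.11, DESeq2 adjusted p = 5.29e-59, mean normalized count 232), which fixed the sign of the comparison as siYTHDC1 over siSCR. The deposited values were 1 mean over the 12 libraries, 1 fold change and 1 standard error (SE) per gene, so no value per library, no total count and no depth per library entered this account, and an error below is the SE of the authors' model. A gene was called when its DESeq2 adjusted p was under 0.001 and its log2 fold change was over 0.5 in size, and 6.76% of all 22564 genes passed, 3.05% higher and 3.71% lower. The 10 A549 and epithelial markers were all in the table, with mean normalized counts from 58.4 for EPCAM to 34836 for ALDH1A1. KRT8 had a mean of 27600 and KRT18 of 14908. Of these markers 1 was called, ALDH1A1, a retinal dehydrogenase (log2 fold change -0.75, SE 0.03). KRT8 was at 0.17 (SE 0.03) and NQO1 at 0.18 (SE 0.03), both short of the fold limit. Of 15 immune, endothelial and stromal markers, 10 were not in the table, among them the pan-leukocyte gene PTPRC, the T cell genes CD3D and CD3E and the endothelial genes PECAM1 and VWF. The 5 present had mean normalized counts from 2.13 to 194, the highest being that of COL1A1, which was above EPCAM. COL1A1, a fibrillar collagen, was the one called (log2 fold change -0.60, SE 0.12), whereas CD14 (-0.27, SE 0.24) and CDH5 (0.77, SE 0.54) were not.

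TNFRSF10A, a receptor that signals death on TRAIL binding, was higher in siYTHDC1. It was the 1 member of 6 that was called, beside 6.76% of all genes. Its RNA rose by 52.1% (95% interval 41.6% to 63.5%), a log2 fold change of 0.61 (SE 0.05, DESeq2 adjusted p = 2.05e-28), on a mean normalized count of 807. By the size of the Wald statistic it stood at place 240 of 22564 genes. FAS stood next, 39.8% higher (24.4% to 57.0%), at a log2 fold change of 0.48 (SE 0.09, DESeq2 adjusted p = 2.02e-07) and a mean normalized count of 223. FAS therefore passed the limit on p but fell just short of that on fold, whereas TNFRSF10A was just past it. The 95% interval of FAS (0.32 to 0.65) spanned the fold limit and that of TNFRSF10A (0.50 to 0.71) started at it. In such bulk samples, a change in the RNA per cell and a change in the share of cells that hold it cannot be told apart.

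TNFRSF10B, the other TRAIL receptor with a full death domain, did not pass the test in either direction. Its log2 fold change was -0.04 (SE 0.05, 95% interval -0.13 to 0.04, DESeq2 adjusted p = 0.516) on a mean normalized count of 2818. That interval leaves room for a fall of up to 8.87% or a rise of up to 3.11%. The decoys did not pass either. TNFRSF10D was at -0.11 (SE 0.07, 95% interval -0.24 to 0.02, DESeq2 adjusted p = 0.198) on a mean of 379. TNFRSF10C was at 0.12 (SE 0.20, DESeq2 adjusted p = 0.718), and with a mean normalized count of 36.6 its interval ran from -0.27 to 0.52, which holds both no change and the change of TNFRSF10A's lower bound.

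TNFRSF1A, the receptor with the highest count of the 6, was slightly lower in siYTHDC1. Its log2 fold change was -0.20 (SE 0.03, 95% interval -0.26 to -0.13, DESeq2 adjusted p = 6.15e-08), 12.8% lower (8.68% to 16.7%) on a mean of 3859, and it was not called because the fold limit was not met. Without the fold limit, 3 of 6 members had a DESeq2 adjusted p under 0.001 (FAS and TNFRSF10A higher, TNFRSF1A lower), beside 18.2% of all genes and 32.3% of the 10410 genes whose mean normalized count reached 100. The median log2 fold change of the 6 was 0.04, and that of all genes was -0.00.

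**Figure D1:**
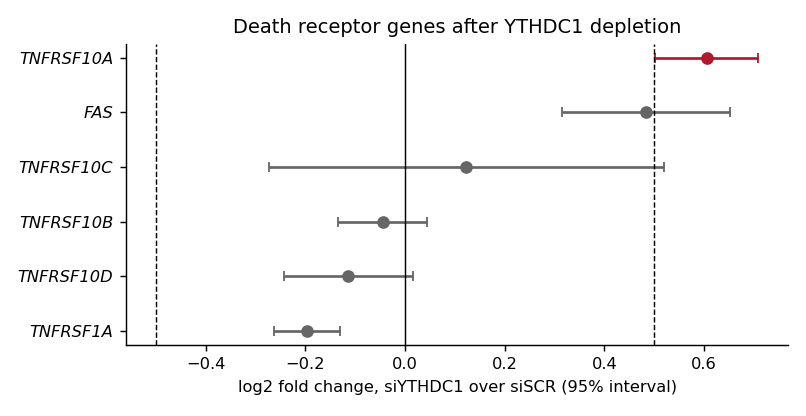
Log2 fold change of each death receptor gene in siYTHDC1 over siSCR (x axis), one gene per line, with points for the authors' DESeq2 estimate and bars for the 95% interval. Dashed lines mark the fold limit of 0.5 in either direction and red marks the called gene. TNFRSF10A (0.61) lies to the right of the limit, FAS (0.48) just short of it, and TNFRSF1A (-0.20) to the left of 0.

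The fold changes of the members were compared with each other. Among the 15 pairs of members, the difference of the log2 fold changes was set against an SE as large as the 2 SEs could give together, since the covariance between genes was not given, with an interval that covers all 15 pairs at once at 95%. The interval excluded 0 for 6 pairs, namely TNFRSF10A and FAS each against TNFRSF10B, TNFRSF10D and TNFRSF1A. TNFRSF10A exceeded TNFRSF10B, the receptor most like it in function, by 0.65 (0.36 to 0.94), and TNFRSF10D by 0.72 (0.37 to 1.07). FAS exceeded TNFRSF10B by 0.53 (0.14 to 0.91) and TNFRSF1A by 0.68 (0.33 to 1.03). TNFRSF10A and FAS were 0.12 apart (-0.28 to 0.53), which does not show that they changed alike. No pair with TNFRSF10C was resolved, its interval against FAS being the widest of the 15 (-0.48 to 1.21).

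The members were present at very different levels. Mean normalized counts, divided by the annotated exon length in kilobases, were 918 per kb for TNFRSF1A, 562 for TNFRSF10B, 276 for TNFRSF10A, 107 for TNFRSF10D, 62.7 for FAS and 23.7 for TNFRSF10C. The receptor for TNF thus stood 38.8-fold above the decoy TNFRSF10C on this scale. Of the receptors that signal for TRAIL, TNFRSF10B was 2.04-fold above TNFRSF10A, and these in turn were above both decoys. TNFRSF10A, the called gene, was not the most abundant TRAIL receptor. Neighbours in this order differed by 1.63 to 2.65-fold, which was not tested, since no spread over libraries was given for the means. The same order was found with the length of the longest transcript, when the values ran from 1291 per kb for TNFRSF1A to 26.2 for TNFRSF10C.

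**Figure D2:**
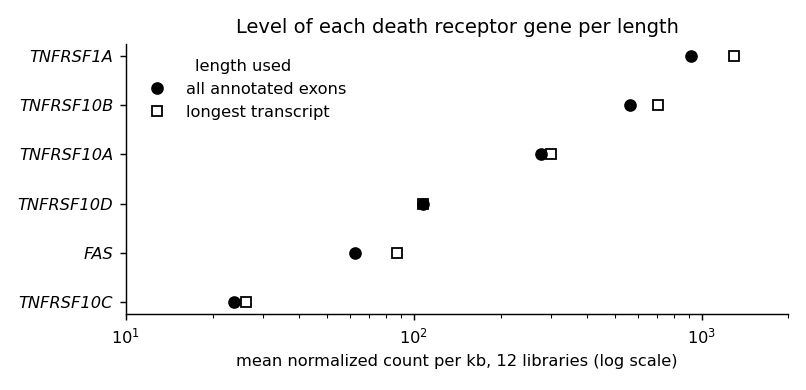
Mean normalized count per kilobase over the 12 libraries (x axis, log scale) for each death receptor gene, with filled circles for the length of all annotated exons and open squares for that of the longest transcript. TNFRSF1A (918 per kb of exons) is at the top and TNFRSF10C (23.7) at the bottom under both lengths.

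The pentamer GGACT is a common form of the sequence at which m6A is placed, and is shown because the depleted protein reads that mark. The mark itself was not measured in these libraries, so a match is a sequence and not a methylated site. In the longest coding transcript FAS held 1 GGACT, or 0.39 per kb, and TNFRSF1A held 5, or 2.10 per kb, beside a median of 0.93 per kb (quartiles 0.58 and 1.38) over 14048 coding genes of the table. The word, searched on the sense strand alone, occurred in 92.5% of those transcripts. Each match of these 2 genes is given with 10 bases on either side, and the capitals mark GGACT.
FAS site 1: ggaaagctagGGACTgcacagtcaa
TNFRSF1A site 1: agaattctctGGACTgaggctccag
TNFRSF1A site 2: aggggttattGGACTggtccctcac
TNFRSF1A site 3: ggcaggatacGGACTgcagggagtg
TNFRSF1A site 4: agggcactgaGGACTcaggcaccac
TNFRSF1A site 5: ctggagctgtGGACTtttgtacata
The match in FAS was in the coding sequence of exon 3 (chr10:90767473-90767477, plus strand, GRCh37). Of the 5 in TNFRSF1A, on the minus strand, site 1 was in the 5′ UTR (chr12:6451179-6451183), sites 2 to 4 were coding (chr12:6443361-6443365, chr12:6442984-6442988 and chr12:6440022-6440026) and site 5 was in the 3′ UTR (chr12:6437968-6437972).

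Among the TRAIL receptors the same word was found at 1.49 per kb in TNFRSF10A (4 matches), 1.25 in TNFRSF10B (5), 1.13 in TNFRSF10D (4) and 3.58 in TNFRSF10C (5). FAS and TNFRSF10A, with the highest fold changes, held the lowest and the third highest density of the 6. None of the 6 members shared an exact run of 50 bases of its longest coding transcript with any transcript of another member, in either orientation.

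The 4 TRAIL receptor genes lie next to each other in 205 kb of chromosome 8 (GRCh37, chr8:22877646-23082615), in the order TNFRSF10B, TNFRSF10C, TNFRSF10D and TNFRSF10A. TNFRSF10A (ENSG00000104689.5, chr8:23047965-23082615), TNFRSF10B (ENSG00000120889.8, chr8:22877646-22926544) and TNFRSF10D (ENSG00000173530.5, chr8:22993101-23021540) are on the minus strand and TNFRSF10C (ENSG00000173535.9, chr8:22960434-22974958) is on the plus strand. Of the 12 other tested genes within 200 kb of a TRAIL receptor gene, 2 were called, both higher and both non-coding RNAs. Around all members 3 of 31 such neighbours were called, all higher, beside 6.76% of all genes (3.05% higher). These small counts were not tested against that share. RP11-1149O23.3 (TNFRSF10A-DT in the later annotation) starts inside TNFRSF10A on the opposite strand and overlaps its first 632 bases. Its log2 fold change was 0.61 (SE 0.12, DESeq2 adjusted p = 2.29e-06) on a mean normalized count of 101, beside 0.61 for TNFRSF10A. The later annotation gives the same name to RP11-1149O23.4, which lies 130 bases from TNFRSF10A on its strand. That entry was not called, at 0.93 (SE 0.56, DESeq2 adjusted p = 0.214) on a mean of 4.51. RP11-875O11.1 starts 797 bases past the 3′ end of TNFRSF10B on the same strand and lies over RHOBTB2, a gene of the opposite strand. It was at 0.89 (SE 0.16, DESeq2 adjusted p = 2.83e-07) on a mean of 67.4.

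No protein-coding neighbour of the TRAIL receptor genes was called. CHMP7, the next coding gene past the TNFRSF10A start, had a log2 fold change of 0.00 (SE 0.05) on a mean of 772, and LOXL2, a lysyl oxidase, had -0.05 (SE 0.05) on a mean of 2528. RHOBTB2, which shares 377 bases with TNFRSF10B on the opposite strand, was at 0.30 (SE 0.06, DESeq2 adjusted p = 1.11e-05) and not called. RP11-875O11.2, which shares 803 bases with the start of TNFRSF10B, had a mean of 1.97 and a log2 fold change of 2.35 (SE 0.96). How reads in such overlaps were assigned to strands was not stated, so their part in the values of TNFRSF10A and TNFRSF10B was not tested.

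**Figure D3:**
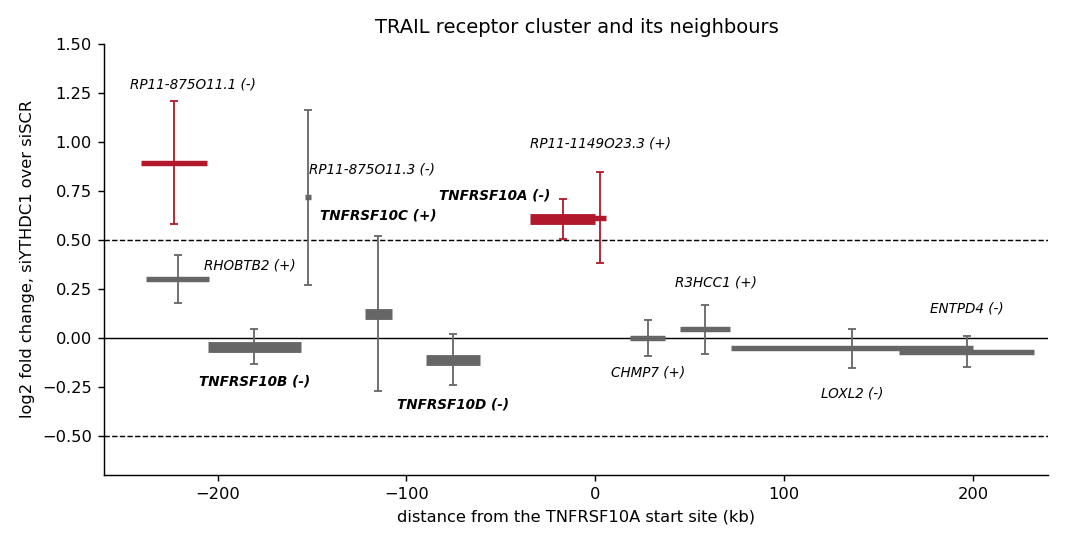
Log2 fold change in siYTHDC1 over siSCR (y axis) against distance from the TNFRSF10A start site in kilobases (x axis), for tested genes around the TRAIL receptors whose mean normalized count reached 30. Horizontal bars span each gene (thick bars and bold names are receptors, + or - is the strand), vertical bars are 95% intervals, dashed lines are the fold limit and red marks called genes. TNFRSF10A and the RNA that starts within it, RP11-1149O23.3, are both at 0.61, whereas TNFRSF10B (-0.04) and TNFRSF10D (-0.11) are near 0.

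FAS (ENSG00000026103.15, chr10:90750414-90775542, plus strand) overlaps the start of ACTA2, the smooth muscle actin gene on the opposite strand, by 683 bases. ACTA2 was at a log2 fold change of 0.34 (SE 0.12, DESeq2 adjusted p = 0.0190) on a mean normalized count of 93.5 and was not called, nor was any of the 5 tested genes within 200 kb of FAS. STAMBPL1, upstream on the FAS strand, was at 0.00 (SE 0.06). TNFRSF1A (ENSG00000067182.3, chr12:6437923-6451280, minus strand) overlapped no tested gene. LTBR, the lymphotoxin beta receptor of the same family, lies 32930 bases away and was also lower without reaching the fold limit (-0.40, SE 0.04, DESeq2 adjusted p = 8.40e-21, mean 1549). So were 2 neighbours that are not receptors of the family, NCAPD2 (-0.21, SE 0.03, DESeq2 adjusted p = 8.61e-09) and MRPL51 (-0.24, SE 0.06, DESeq2 adjusted p = 1.55e-04). Some other coding neighbours were higher and not called. IFFO1 was at 0.65 (SE 0.20, DESeq2 adjusted p = 0.00646) and TAPBPL at 0.61 (SE 0.16, DESeq2 adjusted p = 0.00105). VAMP1 was at 0.29 (SE 0.09) and SCNN1A at 0.43 (SE 0.16), whereas GAPDH was at -0.02 (SE 0.02). Of the 14 tested genes within 200 kb of TNFRSF1A, a non-coding RNA (ENSG00000256433.1) was the 1 called (1.45, SE 0.12), beside 6.76% of all genes.

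The ligand list held FASLG, TNFSF10, TNF and LTA, which bind the receptors described here, and TNFSF12 and TNFSF15, which bind other receptors of the family. FASLG, TNF and LTA were not in the table, and TNFSF10, which encodes TRAIL, had a mean normalized count of 3.98 and a log2 fold change of 0.14 (SE 0.61). TNFSF12 (-0.14, SE 0.20, mean 42.8) and TNFSF15 (-0.26, SE 0.13, mean 126) were not called, so 0 of 3 tested ligands passed, beside 6.76% of all genes. Of the other 4 death domain receptors, TNFRSF25 (DR3, the receptor of TNFSF15) was lower, at -1.26 (SE 0.26, DESeq2 adjusted p = 8.52e-06) on a mean of 23.7. TNFRSF21 (DR6), the abundant one at a mean of 1067, was at 0.34 (SE 0.04, DESeq2 adjusted p = 1.48e-13), under the fold limit, and EDAR at 0.90 (SE 0.63). TNFRSF11B, a soluble receptor that binds TRAIL, was at 2.55 (SE 0.83, DESeq2 adjusted p = 0.00904) on a mean of 2.88.

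Among 12 tested receptors of the family without a death domain, 0 were higher and 1 was lower, beside 3.05% and 3.71% of all genes. Their median log2 fold change was -0.22. The one lower was CD40, a costimulatory receptor that signals through TRAF proteins, at -0.90 (SE 0.20, DESeq2 adjusted p = 3.11e-05) on a mean of 41.8. TNFRSF9 was at 0.66 (SE 0.19, DESeq2 adjusted p = 0.00282), past the fold limit but not that on p.

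Of the genes listed for the death-inducing signalling complex and its regulators 0 were called, beside 6.76% of all genes. With 11 genes in the list, a count of 0 is near that share and does not show that these genes were unchanged. All 11 genes of the death-inducing signalling complex list were tested, 0 were higher and 0 lower, and their median was 0.09. FADD, the adaptor, was at -0.12 (SE 0.06), CASP8, the initiator caspase, at 0.15 (SE 0.05), and CFLAR, which encodes the caspase inhibitor FLIP, at 0.06 (SE 0.04). DEDD, a death effector domain protein, was at 0.35 (SE 0.06, DESeq2 adjusted p = 3.60e-07), and DAXX, first described as a FAS binding protein, at 0.29 (SE 0.10).

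In the TNF receptor 1 signalling complex list, 1 of 21 genes was called, beside 6.76% of all genes. TRAF1, a signalling adaptor, was higher, at a log2 fold change of 1.05 (SE 0.10, DESeq2 adjusted p = 1.53e-23) on a mean normalized count of 181. BIRC2 (cIAP1), a ubiquitin ligase of the complex, was at -0.22 (SE 0.05) and TAB3, a subunit of the TAK1 kinase complex, at 0.22 (SE 0.05). The list's median was -0.01.

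In the mitochondrial and executioner list, 0 of 17 were higher and 1 was lower, beside 3.05% and 3.71% of all genes. The list's median was -0.07. BIRC6, a very large ubiquitin ligase that inhibits caspases, was lower by 0.73 in log2 (log2 fold change -0.73, SE 0.03, DESeq2 adjusted p = 6.83e-166) on a mean of 5234. DFFA (-0.24, SE 0.05), the inhibitor of the caspase-activated DNase, and BIRC5 (-0.24, SE 0.05), survivin, stayed under the fold limit. Of the necroptosis genes RIPK3 and ZBP1 were not in the table, and MLKL, the membrane-permeabilising effector, was at 0.30 (SE 0.07) and PGAM5 at 0.22 (SE 0.05).

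Of 7 tested genes for receptor shedding, glycosylation and turnover, 1 was lower, beside 3.71% of all genes. ADAM10, a membrane protease that sheds surface proteins including FAS ligand, was at -0.89 (SE 0.11, DESeq2 adjusted p = 2.67e-14) on a mean of 2614. RHBDF2, which brings the TNF receptor sheddase ADAM17 to the surface, was at -0.50 (SE 0.05, DESeq2 adjusted p = 8.32e-26), just short of the fold limit. GALNT14, an O-glycosyltransferase that acts on TRAIL receptors, was at 0.22 (SE 0.05).

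Of 13 tested transcription factors known to act on death receptor genes, 2 were higher and 0 lower, with a median of 0.13. Of all genes 3.05% were higher and 3.71% lower, and a list of 13 is too small to set against those shares. TP63, a factor of epithelial stem cells, was at 1.28 (SE 0.13, DESeq2 adjusted p = 2.94e-22, mean 104), and ATF3, a stress factor, at 1.09 (SE 0.17, DESeq2 adjusted p = 2.65e-09, mean 55.9). NFKB1 was at 0.26 (SE 0.04, DESeq2 adjusted p = 7.39e-08) and not called.

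Over the 10 lists of the pathway, 91 of 105 genes were tested, of which 3 were higher and 4 lower, or 7.69%, beside 6.76% of all genes. Their median log2 fold change was 0.02. With the limit on p alone 24 of the 91 passed, or 26.4%, beside the 18.2% of all genes and the 32.3% of genes with a mean of at least 100. The share called was near that of the table as a whole.

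**Figure D4:**
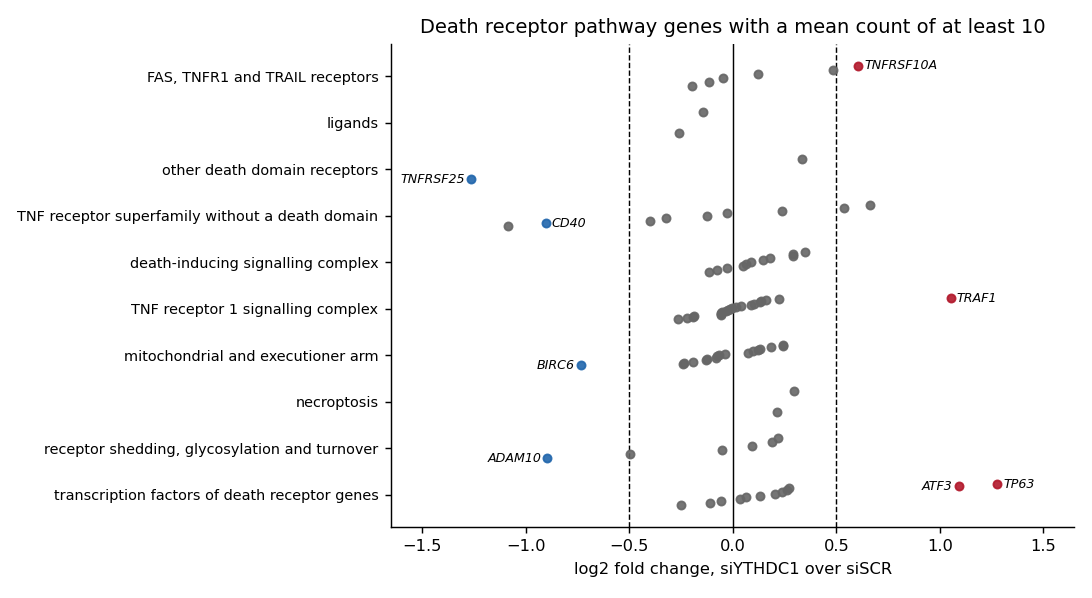
Log2 fold change in siYTHDC1 over siSCR (x axis) of the death receptor genes and of the listed pathway genes whose mean normalized count reached 10, one point per gene and one line per list (the height of points within a line carries no value). Red and blue mark genes called higher and lower, which are named, and dashed lines are the fold limit. All 11 genes of the death-inducing signalling complex list lie within the limits, and TRAF1 (1.05) is the 1 called gene of the TNF receptor 1 signalling complex list.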

How the data were processed

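A549 RNA-seq libraries were compared by the authors, per their methods, after STAR alignment to hg19, HTSeq counting on GENCODE and a DESeq2 model with a term for 2 sequencing batches. The strand setting of the counting was not given in the sources used here. The file held 1 finished comparison over 12 libraries where counts per library had been planned for, so no count model was refitted. The deposited mean is a signal, the mean count after division by size factors. The deposited fold change and its SE are log2 values of the authors. The deposited Wald score is the fold change over its SE, and the deposited p-values are two-sided, with Benjamini-Hochberg adjustment over the 22564 rows. These columns are the authors' own comparison and are printed as such. Computed here with Python 3.11.15, numpy 2.4.6, pandas 2.3.3 and scipy 1.17.1 were calls, 95% intervals, levels per kb, differences between members, list counts and sequence matches on a GRCh37 annotation, in which 21798 gene IDs (96.6%) matched. Scripts were tested on simulated data. Figures were drawn with matplotlib 3.10.9.

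The members and lists were chosen with earlier results of these data known, and the pairwise differences and the sequence searches were added after the values were seen. Named genes were the members, YTHDC1, called genes and the 3 largest Wald scores in each list, some pathway genes by name, and genes overlapping a member. CHMP7, LOXL2, STAMBPL1, NCAPD2, MRPL51, CD3D, CD3E, PTPRC, PECAM1, VWF, KRT18, EPCAM, RIPK3, ZBP1, RP11-875O11.1 and ENSG00000256433.1 were named besides after values were seen. 1 gene that the rule names is not reported here. Alternatives changed the limits on p and fold, the centring, the scale of the statistic, the level filter and the gene length.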

Additional observations from a re-analysis of the deposited data

How the results depend on the processing

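Of the 7 alternatives only centring moved the fold changes, by 0.01, so their directions were not put to a test. Of 41 values of single members, 37 kept their side of the threshold. The number of members called was 3 with no fold limit, 0 with a fold limit of 1 and 0 by a test of a change larger than 0.5, in which TNFRSF10A had an adjusted p of 0.453 (normal tail, Benjamini-Hochberg adjustment over all rows). With the statistic divided by its robust spread of 2.14, 1 member was called, TNFRSF10A, at an adjusted p of 8.54e-06, while FAS had 0.100 and TNFRSF1A 0.0805. The pairwise intervals between members used the deposited SEs and were not recomputed under any alternative, the robust spread included. The 7 called pathway genes became 12 at an adjusted p under 0.05, 24 with no fold limit, 4 with a limit of 1, 3 by the test of a change larger than 0.5, 3 with the robust spread and 4 among genes with a mean of at least 100. The 3 called neighbours became 8, 7, 1, 1 and 1 under the first 5 of these, an alternative added after the data were seen. TNFRSF10C had no value at a mean of at least 100. No paired analysis was possible because the file held no values per library. For the same reason no count model, low-count filter or leave-one-out fit was run, and with 1 row per symbol no other row could be tried.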
